A study of Mus musculus with 10 samples.

Results

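Protocadherins are the largest group of cadherin-like adhesion molecules in vertebrate brains, and 57 of the 24814 genes in a deposited expression table from mouse embryonic cortex carry a name that begins with Pcdh. All 57 were taken, with no filter on expression. They comprise 8 Pcdha, 22 Pcdhb and 15 Pcdhg genes of the clustered families and 12 non-clustered genes. A further 14 entries have names in capitals (PCDHA9, PCDHA4, PCDHGB6, PCDHGA12, PCDHGA9 and PCDHGC5) beside mouse identifiers. The GENCODE M21 annotation gives these as clustered protocadherins, except the entry PCDHA4, which it calls Gm42416. These 14 fall outside the naming rule and are described apart, under their GENCODE symbols.

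RNA was sequenced from the cortex of 10 embryos at embryonic day 12 (E12), each library labelled as a separate animal. The 5 conditional knockout (cKO) libraries have the genotype Emx1 Cre/+; Zbtb7a fl/fl, and the 5 wild-type (WT) libraries have Emx1 Cre/+; Zbtb7a +/+, so the Cre driver is present in both. Emx1-Cre acts in progenitors of the dorsal telencephalon, and other cells in the tissue keep the floxed alleles of Zbtb7a, which encodes a zinc-finger transcription factor. In the labels the batch is the litter. From litter 3 came cKO 4, WT 3 and WT 4, from litter 5 cKO 5 and WT 5, and from litter 1 cKO 1 to 3, WT 1 and WT 2. A series note of 3 cortices per condition from 2 litters differs from these labels, which were followed.

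Values are TPM, a transcript abundance that is scaled by the length of each gene and to a total of 1000000 in each library, so levels can be set side by side between genes but the read depth is unknown. Zbtb7a stood at 3.50 to 5.96 TPM in cKO libraries and 7.20 to 12.53 TPM in WT libraries, with no overlap. The cortical marker Emx1 was at 119 to 210 TPM in cKO and 127 to 210 TPM in WT libraries. Globin genes took 4.17% to 5.57% of TPM in the 3 libraries of litter 3 and 1.73% to 2.64% in the other 7. Xist exceeded 20 TPM in cKO 1, cKO 3, cKO 4 and WT 3 and was at most 0.01 TPM in the other 6. The Y-linked gene Ddx3y was at 0 TPM where Xist was high and at 14.79 to 17.63 TPM in the other 6. By these genes, female and male embryos were not evenly divided between the genotypes.

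In the clustered families, many variable first exons lie in tandem. Each Pcdha or Pcdhg variable exon has its own promoter and is spliced to constant exons shared by the family, whereas a Pcdhb gene is a single variable exon. Neurons choose different combinations of these promoters, a choice that depends on CTCF and cohesin, and the proteins pair in cis and bind the same combination in trans, which serves dendrite self-avoidance and neuron survival. The non-clustered genes are scattered and include the delta-type protocadherins, which mediate weaker adhesion and steer cell sorting, axon growth and synapse formation in the developing brain.

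The 3 promoters below belong to the most abundant non-clustered members. Pcdh19 and Pcdh10 were lower in litter 3 than in litter 1, and Pcdh18, of a similar level, was not called. Each line holds the 250 bases before the RefSeq transcription start on GRCm38.p6, 5′ to 3′ on the gene's strand, with the letters GACCC or their reverse complement GGGTC in capitals. GACCC is the core of the element that human ZBTB7A selects in vitro.
Pcdh19 (chrX:133688994-133689243, reverse strand): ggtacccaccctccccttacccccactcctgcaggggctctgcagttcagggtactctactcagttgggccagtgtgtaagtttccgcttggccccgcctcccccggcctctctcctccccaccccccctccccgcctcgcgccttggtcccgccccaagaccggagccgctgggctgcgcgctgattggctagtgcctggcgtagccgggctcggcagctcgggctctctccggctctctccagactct
Pcdh10 (chr3:45378148-45378397, forward strand): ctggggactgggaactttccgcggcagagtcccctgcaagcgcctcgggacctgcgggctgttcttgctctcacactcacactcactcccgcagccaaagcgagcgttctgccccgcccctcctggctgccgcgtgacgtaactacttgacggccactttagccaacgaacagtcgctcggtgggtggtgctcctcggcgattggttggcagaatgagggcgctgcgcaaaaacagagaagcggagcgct
Pcdh18 (chr3:49757317-49757566, reverse strand): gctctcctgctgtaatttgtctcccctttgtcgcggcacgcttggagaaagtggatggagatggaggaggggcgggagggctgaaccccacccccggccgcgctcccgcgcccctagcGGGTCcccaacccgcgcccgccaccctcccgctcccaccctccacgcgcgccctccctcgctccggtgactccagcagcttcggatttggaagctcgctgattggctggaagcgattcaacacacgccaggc

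GACCC was found once on either strand in the Pcdh18 window and not in those of Pcdh19 and Pcdh10, and 38.7% of 32851 promoter windows of this length hold it. All 3 windows are rich in CG dinucleotides, with 16 in Pcdh19, 22 in Pcdh10 and 23 in Pcdh18 against a median of 6 over all windows. Each holds 1 GC box (GGGCGG, either strand), as 32.7% of windows do, and none holds TATAAA, which 12.4% do. Of the members, 9 have an entry in the promoter table, all of them non-clustered.

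The clustered members span 36946105 to 37187661 (Pcdha), 37264938 to 37524479 (Pcdhb) and 37661793 to 37841873 (Pcdhg) on chromosome 18 of GRCm38, all on the forward strand. Of the 57 members, 47 lie on that chromosome, Pcdh1 and Pcdh12 included. Exon sharing sets how well each gene can be measured. In the annotation, a median of 53.6% of the exonic bases of a Pcdha gene and 44.8% of those of a Pcdhg gene also belong to another protocadherin. For Pcdhb the median is 0, and no non-clustered gene shares any. The sources used here do not say how reads from the shared exons were assigned, so the values of single Pcdha and Pcdhg genes are uncertain and partly dependent on each other. For the same reason the summed levels of these families, and their rank against the other groups, are uncertain.

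By summed level, the non-clustered genes led. They averaged 103 ± 22.6 TPM in cKO libraries and 96.5 ± 21.7 TPM in WT libraries (SD, n = 5 each), which is 61.4% of all TPM of the 57 members. The Pcdhg genes summed to 51.5 ± 13.0 TPM in cKO and 51.2 ± 11.1 TPM in WT libraries, or 31.5%. Pcdhb genes summed to 9.77 ± 3.24 TPM in cKO and 9.14 ± 0.987 TPM in WT, and Pcdha genes to 2.21 ± 0.932 TPM in cKO and 1.88 ± 0.604 TPM in WT. Counting the 14 entries named in capitals turns the order round, with Pcdhg at 52.3% and the non-clustered genes at 40.9%, and Pcdhgc3, 1 of those entries, is the most abundant protocadherin of the table.

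The non-clustered members ran over a wide range, and the leading pair were at nearly the same level. Pcdh18 averaged 24.8 ± 2.53 TPM and Pcdh19 averaged 24.1 ± 7.09 TPM over the 10 libraries, a gap well inside their spread. Pcdh10 followed at 16.4 ± 4.98 TPM and Pcdh9 at 10.2 ± 3.92 TPM. Below them came Pcdh1 at 6.90 TPM, Pcdh7 at 5.22 TPM, Pcdh12 at 3.96 TPM, Pcdh17 at 3.36 TPM, Pcdh8 at 2.80 TPM and Pcdh11x at 0.996 TPM. From Pcdh19 down, the ranges of neighbours in this order overlapped. Pcdh15, a component of the hair-cell tip link, averaged 0.857 TPM and Pcdh20 averaged 0.484 TPM.

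**Figure D1:**
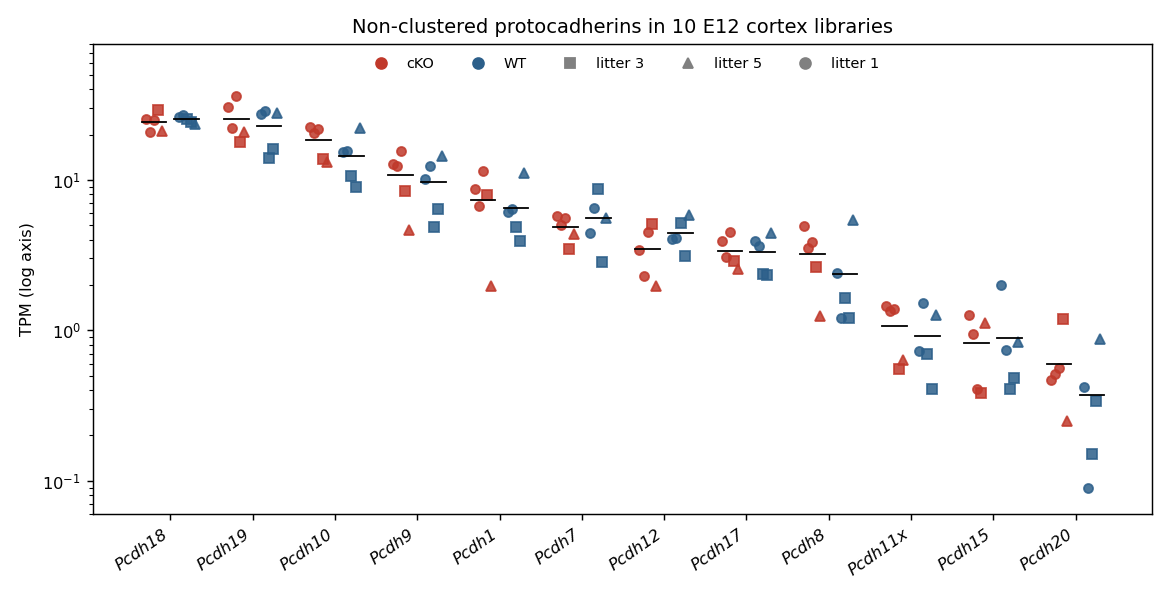
TPM (log axis) of the 12 non-clustered protocadherins in each library, ordered by mean, with cKO in red left of WT in blue, marker shape giving the litter and black bars the mean of 5 libraries. Genotypes overlap for every gene, and the litter 3 squares of Pcdh19 and Pcdh10 sit below all litter 1 circles, while those of Pcdh18 do not.

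Among the delta-2 genes, Pcdh19 (ENSMUSG00000051323) encodes an X-linked protocadherin whose loss in humans causes an epilepsy of heterozygous females. It was at 30.27, 21.98, 36.20, 17.77 and 20.70 TPM in cKO 1 to 5, against 27.37, 28.55, 13.93, 16.04 and 27.70 TPM in WT 1 to 5. The genotypes overlapped, and the 3 lowest values were those of litter 3. Pcdh10 (ENSMUSG00000049100, OL-protocadherin), which recruits the WAVE actin regulator and guides forebrain axons, was at 22.57, 20.37, 21.68, 13.74 and 13.09 TPM in cKO 1 to 5, against 15.21, 15.62, 10.59, 8.94 and 22.07 TPM in WT 1 to 5. In litter 1 all 3 cKO libraries were above both WT libraries, and in litter 5 the order was the opposite.

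Pcdh18 (ENSMUSG00000037892), whose protein binds the Reelin pathway adaptor Dab1, was at 25.52, 20.80, 24.85, 29.19 and 21.10 TPM in cKO 1 to 5, against 26.04, 26.91, 25.44, 24.10 and 23.64 TPM in WT 1 to 5. Its coefficient of variation over the 10 libraries, 10.2%, was the smallest of the 12 non-clustered genes. Pcdh17, which clusters at synapses of corticobasal circuits, was at 3.94, 3.07, 4.48, 2.87 and 2.56 TPM in cKO 1 to 5, against 3.92, 3.61, 2.35, 2.33 and 4.42 TPM in WT 1 to 5. Pcdh8 (arcadlin, also called paraxial protocadherin), which signals through the kinase TAO2 to internalise N-cadherin, was at 4.91, 3.50, 3.87, 2.64 and 1.24 TPM in cKO 1 to 5, against 2.40, 1.20, 1.64, 1.21 and 5.38 TPM in WT 1 to 5. Its coefficient of variation, 55.6%, was the largest among the 10 non-clustered genes that were tested. In litter 1 and litter 3 each cKO library exceeded each WT library of the same litter, and in litter 5 WT was higher.

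The delta-1 genes share a motif that binds protein phosphatase 1. Pcdh9, the most abundant of them here, was at 12.80, 12.41, 15.48, 8.46 and 4.61 TPM in cKO 1 to 5, against 10.14, 12.42, 4.85, 6.43 and 14.32 TPM in WT 1 to 5. Pcdh1, named in airway epithelium as an asthma gene and as a hantavirus receptor, was at 8.68, 6.75, 11.39, 7.88 and 1.96 TPM in cKO 1 to 5, against 6.10, 6.37, 4.83, 3.93 and 11.10 TPM in WT 1 to 5. Both genes had their lowest value in cKO 5, and WT 5 of the same litter was the second highest for each. Pcdh7, which takes part in retinal axon growth in frog embryos, was at 5.78, 5.02, 5.56, 3.48 and 4.36 TPM in cKO 1 to 5, against 4.41, 6.51, 8.64, 2.85 and 5.60 TPM in WT 1 to 5. Its highest and lowest values were those of WT 3 and WT 4, both of litter 3. X-linked Pcdh11x ranged over 0.55 to 1.44 TPM in cKO and 0.41 to 1.51 TPM in WT libraries.

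Pcdh12, a vascular protocadherin also called VE-cadherin-2, was at 3.43, 2.31, 4.50, 5.06 and 1.98 TPM in cKO 1 to 5, against 4.07, 4.13, 5.16, 3.11 and 5.81 TPM in WT 1 to 5. Its level followed the summed level of 8 endothelial genes (Pecam1, Cdh5, Kdr, Tek, Emcn, Eng, Cldn5 and Esam), all of them in the table and none at 0 in every library. That sum ranged over 68.3 to 129 TPM in cKO and 107 to 158 TPM in WT libraries. Over the 10 libraries Pearson's r was 0.899 (permutation p = 0.00021, adjusted p = 0.0081) and Spearman's rho was 0.806 (permutation p = 0.00698, adjusted p = 0.0617), adjusted over the 90 gene and list pairs computed. Without the 2 libraries farthest from the median endothelial sum r was 0.790, and after removing litter and genotype means it was 0.873. This last value was not particular to Pcdh12, since r with the endothelial sum after removing litter and genotype means was 0.976 for Pcdh10, 0.964 for Pcdh1, 0.905 for Pcdh8 and 0.881 for Pcdh17. Without that removal those 4 genes had r of 0.069, 0.659, 0.390 and 0.256, and none passed after adjustment. Without the 2 farthest libraries, cKO 5 and WT 5, their r was -0.519, -0.156, -0.266 and -0.406. Litter 5 holds only those 2 libraries, so after the removal their values are equal and opposite. How far each r after the removal rests on that pair was not tested. Nor was the value of Pcdh12 after the removal particular to the endothelial genes. After the same removal Pcdh12 had r = 0.8845 with the summed Cajal-Retzius genes given below, and 0.815 with the apical progenitor sum. Before the removal its r with the Cajal-Retzius sum was 0.456. No litter holds 6 libraries, so r within litters was not computed. In bulk tissue, fewer cells of a type and less RNA per cell cannot be told apart.

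Of the 10 tested non-clustered members, the levels of 5 followed the sum of 6 Cajal-Retzius neuron genes (Reln, Trp73, Lhx1, Lhx5, Ebf3 and Calb2). That sum ranged over 37.5 to 61.7 TPM in cKO and 32.6 to 58.4 TPM in WT libraries. The genes of this list did not all move together. In litter 3 against litter 1, Reln was called lower (log2 difference -0.85, limma adjusted p = 0.0138). Lhx5 was uncalled at 0.37. In cKO 4, Reln was at its lowest, 6.03 TPM, and Lhx5 at its highest, 5.52 TPM. Pcdh9 had r = 0.849 (permutation p = 0.00166, adjusted p = 0.0166) and rho = 0.915 (permutation p = 0.00056, adjusted p = 0.0392), with r = 0.900 without the 2 farthest libraries and 0.780 after removing litter and genotype means. Pcdh1 had r = 0.849 (permutation p = 0.00203, adjusted p = 0.0166) and rho = 0.879 (permutation p = 0.00174, adjusted p = 0.0392), with r = 0.879 and 0.887 in those 2 checks. Pcdh17 had r = 0.826 (permutation p = 0.00283, adjusted p = 0.0211) and rho = 0.855 (permutation p = 0.00274, adjusted p = 0.0431), with r = 0.716 and 0.751. Pcdh10 had r = 0.862 (permutation p = 0.00129, adjusted p = 0.0164) and rho = 0.830 (permutation p = 0.00488, adjusted p = 0.0549), with r = 0.739 and 0.853. Pcdh11x had r = 0.839 (permutation p = 0.00146, adjusted p = 0.0164) and rho = 0.770 (permutation p = 0.0123, adjusted p = 0.0783), with r = 0.758 in both checks. For Pcdh10 and Pcdh11x only Pearson's r passed after adjustment. These sums share the TPM scaling of each library with the genes. The share of all genes that pass the same correlation was not computed, so the count of 5 does not show a relation particular to protocadherins. For early neuron, apical progenitor, erythroid and mesenchymal genes the libraries fall into separate clusters, so no pooled r is given and the lists are not ranked. In the remaining lists, Pearson's r also passed for Pcdh1 with the ventral telencephalon sum (r = 0.746, permutation p = 0.0104, adjusted p = 0.0437). It also passed for Pcdh19 with the intermediate progenitor sum (r = 0.769, permutation p = 0.00914, adjusted p = 0.0411). After removing litter and genotype means these were 0.871 and -0.103, and Spearman's rho passed for neither. The intermediate progenitor sum also separated litter 3, at 303 to 457 TPM, from litter 1, at 570 to 745 TPM. After removing litter and genotype means, r with the apical progenitor sum was 0.900 for Pcdh9, 0.929 for Pcdh1 and 0.955 for Pcdh17, above their values with the Cajal-Retzius sum. With the early neuron sum it was 0.882 for Pcdh9 and 0.907 for Pcdh10, also above. How far the r values after removing these means rest on the litter 5 pair, cKO 5 against WT 5, was not tested.

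In the Pcdhg family, 13 of the 15 members averaged at least 1 TPM. Pcdhgb6 led, with 13.15, 11.58, 14.03, 7.98 and 7.61 TPM in cKO 1 to 5, against 10.11, 12, 7.71, 7.59 and 12.05 TPM in WT 1 to 5. Pcdhgb7 followed with 7.88, 6.97, 8.75, 4.83 and 5.05 TPM in cKO 1 to 5, against 6.95, 7.83, 6.32, 4.41 and 7.89 TPM in WT 1 to 5. Pcdhga7 was at 5.47, 5.16, 4.39, 2.31 and 2.61 TPM in cKO 1 to 5, against 4.11, 5.32, 3.85, 3.14 and 4.95 TPM in WT 1 to 5. For all 3, cKO 4 and cKO 5 were the lowest cKO libraries and WT 3 and WT 4 the lowest WT libraries.

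Pcdhgb2 was at 4.35, 3.25, 2.96, 1.95 and 3.14 TPM in cKO 1 to 5, against 3.54, 3.43, 2.18, 1.84 and 3.62 TPM in WT 1 to 5. Pcdhga4 was at 3.91, 4.51, 2.81, 2.05 and 2.25 TPM in cKO 1 to 5, against 3.92, 3.26, 2.41, 2.27 and 3.50 TPM in WT 1 to 5. Pcdhgc4, the isoform that cortical interneurons need to survive the period of cell death, was at 4.82, 2.24, 2.97, 1.63 and 2.69 TPM in cKO 1 to 5, against 4.57, 2.46, 2.01, 1.25 and 2.90 TPM in WT 1 to 5. Its highest values came from cKO 1 and WT 1, and its spread was the widest among the tested members of the family, with a coefficient of variation of 42.0%.

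Pcdhgb4 was at 3.12, 2.77, 2.70, 1.78 and 1.69 TPM in cKO 1 to 5, against 2.98, 3.72, 2.55, 1.98 and 3.26 TPM in WT 1 to 5. Pcdhgb1 was at 1.20, 1.77, 1.83, 0.81 and 1.50 TPM in cKO 1 to 5, against 2.38, 2.36, 1.12, 1.12 and 1.54 TPM in WT 1 to 5. In neither gene did the genotypes separate. The remaining Pcdhg members averaged between 0.767 TPM (Pcdhga1) and 4.05 TPM (Pcdhgb5), and Pcdhga2 varied least, with a coefficient of variation of 13.1%. All 15 were above 0 in every library.

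Pcdhb genes were low: all 22 averaged under 1 TPM, from 0.008 TPM for Pcdhb1 to 0.991 TPM for Pcdhb22. Pcdhb22 was at 1.33, 1.46, 0.79, 0.41 and 0.89 TPM in cKO 1 to 5, against 0.83, 0.78, 1.61, 0.85 and 0.96 TPM in WT 1 to 5. Pcdhb8 was at 1.15, 0.83, 0.47, 0.84 and 0.50 TPM in cKO 1 to 5, against 2.46, 0.89, 0.74, 1.13 and 0.38 TPM in WT 1 to 5. Pcdhb7 was at 1.05, 1.19, 0.69, 0.63 and 0.87 TPM in cKO 1 to 5, against 0.90, 1.14, 1.05, 0.66 and 1.11 TPM in WT 1 to 5. Genotypes overlapped in all 3, and 15 of the 22 genes stayed below 1 TPM in every library. Nonetheless 20 of the 22 were above 0 in every library.

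Pcdha genes were lower still, and all 8 stayed below 1 TPM in every library. Pcdha7 was at 0.65, 0.40, 0.72, 0.13 and 0.33 TPM in cKO 1 to 5, against 0.23, 0.66, 0.15, 0.22 and 0.50 TPM in WT 1 to 5. Pcdha9 was at 0.60, 0.45, 0.64, 0.05 and 0.37 TPM in cKO 1 to 5, against 0.35, 0.29, 0.23, 0.07 and 0.50 TPM in WT 1 to 5. Pcdha6 was at 0.39, 0.49, 0.04, 0.07 and 0.20 TPM in cKO 1 to 5, against 0.62, 0.54, 0.13, 0.33 and 0.43 TPM in WT 1 to 5. The other 5 averaged 0.018 to 0.317 TPM, and 5 of the 8 were above 0 in every library. The gene deposited as Pcdha10 carries an identifier that GENCODE M21 calls Pcdha11, as does 1 of the entries named in capitals.

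Among the entries named in capitals, Pcdhgc3 was the highest. It is 1 of the C-type genes, which are thought to be expressed in most neurons rather than by random choice. Pcdhgc3 averaged 53.8 ± 10.7 TPM in cKO and 51.5 ± 8.78 TPM in WT libraries (SD, n = 5 each), about the level of the 15 Pcdhg genes of the rule combined. Pcdhac2 averaged 3.39 ± 1.22 TPM in cKO and 2.93 ± 1.02 TPM in WT libraries, above all 8 Pcdha genes of the rule. The other C-type genes named in capitals were low, with Pcdhac1 at 0.709 TPM and Pcdhgc5 at 0.532 TPM on average over the 10 libraries. Of the genes that are not C-type, Pcdhga11 averaged 9.19 TPM, Pcdhga12 5.61 TPM, Pcdhga3 3.36 TPM, Pcdhga8 2.59 TPM and Pcdhga9 2.56 TPM.

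No protocadherin passed the test between cKO and WT cortex. Genes with at least 1 TPM in at least 5 libraries were tested with limma on log2(TPM + 1), with genotype and litter as terms, and 24 of the 57 members passed this filter: 10 non-clustered, 13 Pcdhg, 1 Pcdhb (Pcdhb7) and no Pcdha. None of the 24 passed, with calls made at 0.05 after Benjamini-Hochberg adjustment over all tested genes, and each had a limma adjusted p of 0.9997. Over all 13833 tested genes, 5 were called, or 0.0361%. At an unadjusted p under 0.05 limma again found 0 of the 24, against 2.34% of all genes. No member separated the genotypes without overlap, where 0.195% of all genes did so with cKO higher and 0.0867% with cKO lower. All 7 tested entries named in capitals were also uncalled.

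The lowest p-values among members with lower estimates in cKO belonged to 3 Pcdhg genes. Pcdhgb4 had a log2 fold change of -0.29 (SE 0.15), with a 95% interval of -0.62 to 0.041. Pcdhgb1 had -0.26 (SE 0.15, interval -0.60 to 0.074), and Pcdhga7 had -0.24 (SE 0.17, interval -0.61 to 0.14). Among members with higher estimates, Pcdh10 had 0.21 (SE 0.17, interval -0.18 to 0.60), Pcdh8 had 0.30 (SE 0.34, interval -0.47 to 1.06) and Pcdh19 had 0.0045 (SE 0.15, interval -0.32 to 0.33).

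The estimates leaned slightly below 0. Of the 24 members 20 had a negative log2 fold change, against 56% of all genes, and among them were all 13 Pcdhg genes. The median was -0.12 for Pcdhg and -0.020 for the non-clustered genes, against -0.014 for all genes. This lean depended on the litter term: without it, 12 of the 24 were below 0. Within litter 1 alone 9 of 22 tested members were below 0, and within litters 3 and 5 together 19 of 21 were. The share of all genes below 0 in these alternative fits is not given here, so their counts do not show a lean particular to protocadherins. The Pcdhg genes share exons, so their signs are not independent.

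The genotype gap of Pcdh1, Pcdh9 and Pcdh8 was widest in litter 5, which has only 2 libraries, 1 of each genotype. On the log2 scale most of the 24 tested members also had their widest gap in litter 5, such as Pcdh12, at -1.19. The exceptions were Pcdhgb1, widest in litter 1, and Pcdh7, Pcdh18, Pcdhb7 and Pcdhgb5, widest in litter 3. Pcdh1 stood at 1.96 TPM in cKO 5 and 11.10 TPM in WT 5, Pcdh9 at 4.61 TPM in cKO 5 and 14.32 TPM in WT 5, and Pcdh8 at 1.24 TPM in cKO 5 and 5.38 TPM in WT 5. In the same pair, early neuron markers summed to 907 TPM in cKO 5 and 1703 TPM in WT 5, ventral telencephalon markers to 21.5 TPM in cKO 5 and 205 TPM in WT 5, and choroid plexus and hem markers to 835 TPM in cKO 5 and 315 TPM in WT 5. The part of these markers in the gaps was not tested. The genotype effect in litters 3 and 5, pooled, was compared with that in litter 1 by an interaction term. For Pcdh1, Pcdh9 and Pcdh8 the log2 difference, cKO minus WT, had opposite signs in the pooled litters. It was 0.73 in litter 3 and -2.03 in litter 5 for Pcdh1. For Pcdh9 it was 0.52 and -1.45, and for Pcdh8 0.59 and -1.51. The pooled term averages these, so it cannot test the litter 5 gaps. None of the 24 members passed an adjusted p under 0.05 in limma, where 0% of all genes did, and none had an unadjusted p under 0.05, against 4.97% of all genes. The smallest p-value was that of Pcdhga7, whose log2 fold change minus that in litter 1 was -0.63 (SE 0.29).

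**Figure D2:**
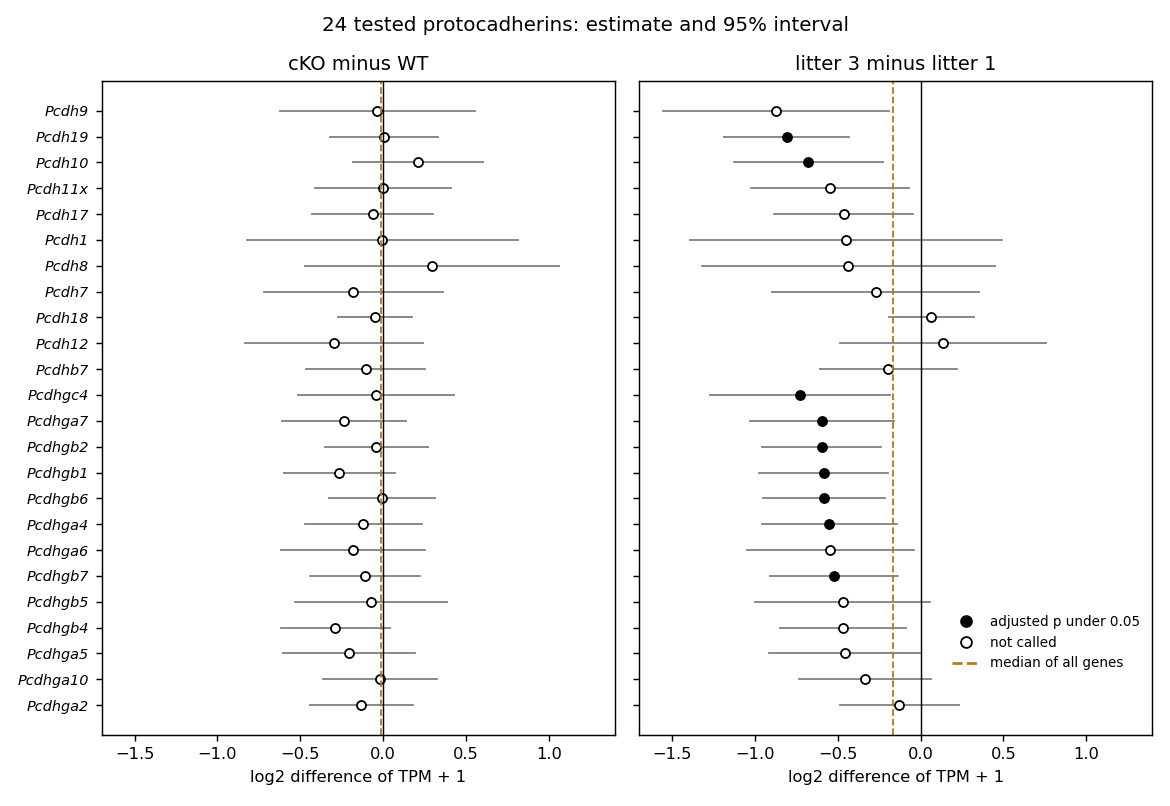
Estimates (dots) and 95% intervals (lines) of the log2 difference of TPM + 1 for the 24 tested members, cKO minus WT on the left and litter 3 minus litter 1 on the right, with filled dots for an adjusted p under 0.05 and a dashed line at the median of all genes. All genotype intervals include 0, while 9 members are filled in the litter contrast, all of them below 0.

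Litters differed in several protocadherins. In litter 3 compared with litter 1, in the same limma fit, 9 of the 24 members were called lower (37.5%) and none higher. Over all tested genes 31.6% were called, 25.8% lower and 5.8% higher, and the difference between the protocadherin share and the share of all genes was not tested. Of the 24 members 22 had estimates below 0, against 65.9% of all genes. The 9 comprised 2 non-clustered genes, Pcdh19 and Pcdh10, and 7 of the 13 Pcdhg genes. The median of all genes was itself shifted, at -0.16 on the log2 scale. Relative to it the members had a median of -0.33, and 21 of the 24 were below it.

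Pcdh19 averaged 15.9 TPM in litter 3 and 28.9 TPM in litter 1. Its log2 difference was -0.81 (SE 0.17, limma adjusted p = 0.00761), and it was the only member called whichever 1 of the 10 libraries was left out, with limma adjusted p-values of 0.00475 to 0.0317. Pcdh10 averaged 11.1 TPM in litter 3 and 19.1 TPM in litter 1, a log2 difference of -0.68 (SE 0.20, limma adjusted p = 0.0297). This call was lost without cKO 1, cKO 3, WT 3 or WT 4. In both genes every litter 3 library was below every litter 1 library.

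Pcdhgc4 averaged 1.63 TPM in litter 3 and 3.41 TPM in litter 1, a log2 difference of -0.73 (SE 0.24, limma adjusted p = 0.0456). The other 6 called Pcdhg genes had log2 differences from -0.60 for Pcdhga7 to -0.52 for Pcdhgb7, with limma adjusted p-values from 0.0205 for Pcdhgb2 to 0.0442 for Pcdhga4. Pcdhgb6, the family's leading member, averaged 7.76 TPM in litter 3 and 12.2 TPM in litter 1, and Pcdhgb1 averaged 1.02 TPM in litter 3 and 1.91 TPM in litter 1. Each of these 7 calls was lost on leaving out cKO 4 or WT 4, both of litter 3. The count of called members was 1 without WT 4, 3 without cKO 1 or cKO 4, 4 without cKO 3, WT 2 or WT 3, and 6 without WT 1. The share of all genes called with these libraries left out is not given here.

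Not every protocadherin took part. Pcdh18 averaged 26.2 TPM in litter 3 and 24.8 TPM in litter 1, with a log2 difference of 0.065 (SE 0.11, limma adjusted p = 0.700). Pcdh12 had a log2 difference of 0.13 (SE 0.28, limma adjusted p = 0.747). Pcdh9 had the largest estimate of the 24 tested members, at -0.87 (SE 0.31), but missed the threshold with a limma adjusted p of 0.0525. After quantile normalisation, which moves the all-gene median to -0.0057, Pcdh18 was called higher in litter 3 (0.30, limma adjusted p = 0.0385), and Pcdh19, Pcdhgb2 and Pcdhgc4 were still called lower.

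By ranges, 13 of the 24 members had every litter 3 library below every litter 1 library, against 30.1% of all genes. The direction was shared by both genotypes. Within cKO, 22 of the 24 members were below 0, against 60.6% of all genes, and within WT all 24 were, against 68.5%. In litter 5 compared with litter 1, all 24 were below 0 with a median of -0.23, against -0.089 for all genes. Of the 7 tested entries named in capitals 4 were called lower in litter 3, namely Pcdhac2 (log2 difference -0.88, limma adjusted p = 0.00449), Pcdhgc3 (-0.50, limma adjusted p = 0.0084), Pcdhga11 (-0.69, limma adjusted p = 0.0104) and Pcdhga3 (-0.54, limma adjusted p = 0.0300). Pcdhgc3 was at 41.95 TPM in cKO 4, 42.20 TPM in WT 3 and 41.86 TPM in WT 4, the 3 libraries of litter 3, against a mean of 59.5 TPM in litter 1.

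Sums over each group, untested members included, were also lower or overlapping in litter 3. The 8 Pcdha genes summed to 1.16 to 1.29 TPM in litter 3 libraries and 1.95 to 3.27 TPM in litter 1 libraries. The 22 Pcdhb genes summed to 6.12 to 10.14 TPM in litter 3 and 8.98 to 14.13 TPM in litter 1, ranges that overlapped. The Pcdhg sum was 35.3 to 43.9 TPM in litter 3 and 53.3 to 65.8 TPM in litter 1, and the non-clustered sum was 70.2 to 93.2 TPM in litter 3 and 99.0 to 130.4 TPM in litter 1.

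Markers of cell types moved with the litters as well. All of the 8 early neuron genes were in the table and none was at 0 in every library. They summed to 896 to 1032 TPM in litter 3, against 1345 to 1819 TPM in litter 1, and 6 of 8 were called lower. Of 6 intermediate progenitor genes 6 were called lower, and of 8 apical progenitor genes 5. The 9 mesenchyme and meninges genes summed to 463 to 1035 TPM in litter 3 and 209 to 328 TPM in litter 1, with 8 of 9 called higher, and 6 of 7 erythroid genes were called higher. In cKO 5 the early neuron sum was 907 TPM, within the litter 3 range, and the Pcdhg sum was 39.3 TPM. The part of these markers in the protocadherin differences was not tested.

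**Figure D3:**
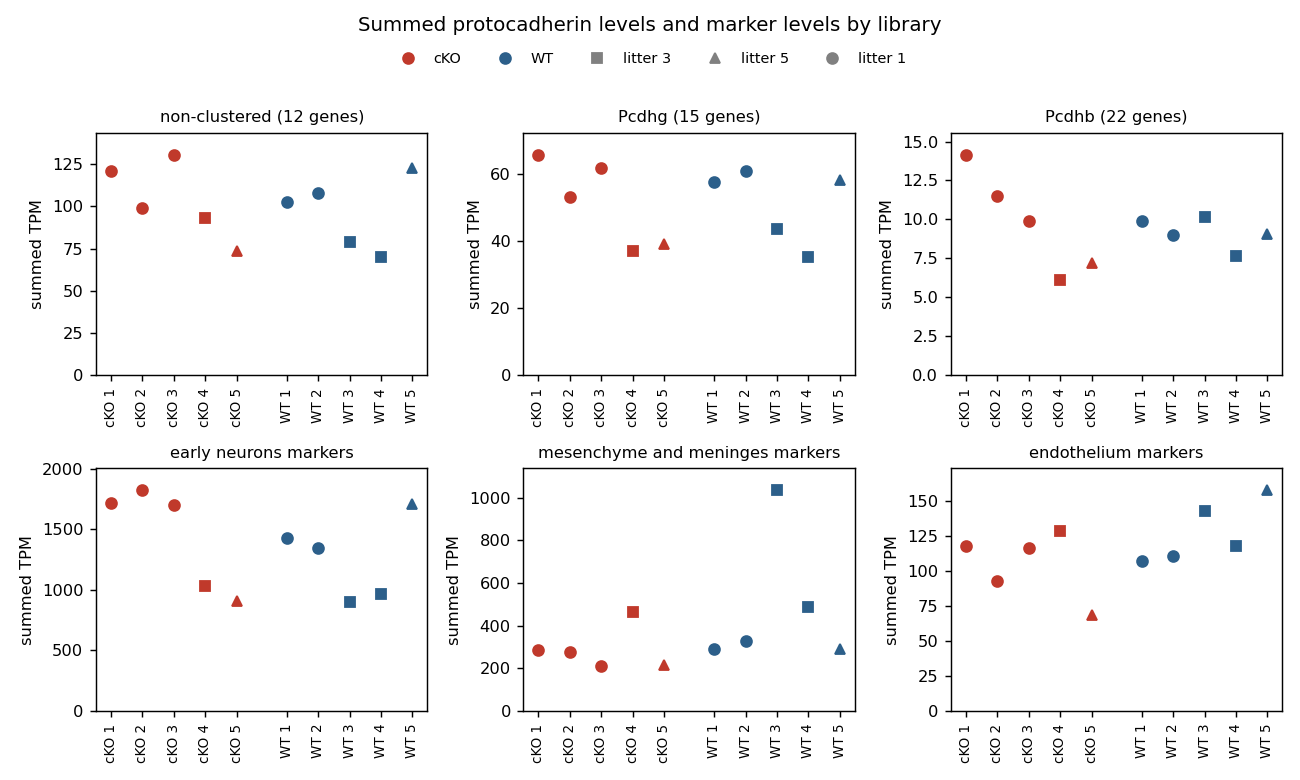
Summed TPM in each library for 3 protocadherin groups (upper row) and 3 marker lists (lower row), cKO in red left of WT in blue, marker shape giving the litter. cKO 4, cKO 5, WT 3 and WT 4 are the 4 lowest libraries for the Pcdhg genes, at 35.3 to 43.9 TPM, and for early neuron markers, at 896 to 1032 TPM, while mesenchymal markers are highest in WT 3.

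Genes that act with protocadherins were looked at in the same way. Of 15 tested regulators of clustered protocadherin promoters, among them the insulator protein Ctcf, cohesin subunits and the chromatin silencer Smchd1, 0 were called between cKO and WT at an limma adjusted p under 0.05, and their median log2 fold change was -0.028. Stag1 (-0.081) and Stag2 (-0.14), alternative subunits of cohesin, had the smallest p-values. In litter 3, 14 of the 15 were called lower than in litter 1, with a median of -0.56. Ctcf had a log2 difference of -0.47 (limma adjusted p = 0.0094) and Smchd1 of -0.61 (limma adjusted p = 0.0150). After quantile normalisation 6 of the 15 were called lower, with a median of -0.33.

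Of 13 tested effectors, which include the WAVE complex and kinases that protocadherins recruit, 0 were called between genotypes, with a median of -0.023. The kinase Fyn (-0.097) and the WAVE subunit Brk1 (0.057) had the smallest p-values. In litter 3, 8 were called lower, with a median of -0.37, and Fyn had a log2 difference of -0.65 (limma adjusted p = 0.00425). After quantile normalisation 5 were called lower and 2 higher. Other branches of the cadherin superfamily were also uncalled between genotypes. Among the 11 tested classical and other cadherins the median was 0.064 and the smallest p-values were those of Cdh22 (0.35) and Cdh10 (-0.31). Among the 9 tested Fat, Dachsous, Celsr and calsyntenin genes the median was 0.0014, with Clstn1 (-0.13) and Clstn3 (0.12) at the smallest p-values. None of the tested genes of these 4 lists had an unadjusted p under 0.05 in limma between the genotypes.

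In litter 3 all 9 of these Fat, Dachsous, Celsr and calsyntenin genes were called lower, with a median of -0.97, and 8 were after quantile normalisation. Of the 11 classical and other cadherins 2 were called lower and 1 higher. The neural cadherin Cdh2 had a log2 difference of -0.53 (limma adjusted p = 0.0148), and the mesenchymal cadherin Cdh11 had 0.99 (limma adjusted p = 0.00492).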

How the data were processed

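Polyadenylated RNA from 10 E12 cortices was extracted with RNeasy, per the labels' protocols. The authors deposited TPM for 24814 genes with 2 decimals. Per the submitters' processing notes, cutadapt, featureCounts, DESeq2 and mm10 were used, with no versions or roles. The aligner, the tool behind the TPM, the use of strand and the treatment of reads with several matches are not given in the sources used here. TPM keeps no depth, so no count model was run. The TPM table has 5 columns without a library name, with 4 values each, which were not used. The authors' deposited 7-gene comparison was not used.

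Identifiers were matched to GENCODE M21 (24774 of 24814, and all 57 members). log2(TPM + 1) was tested with limma 3.58.1 in R 4.3.3, a trended moderation, two-sided tests and 6 residual degrees of freedom. Fold changes on this scale understate changes of low genes. p-values measure the spread between these animals. Correlations used two-sided permutation tests with 100000 resamples. The resamples shuffled all 10 libraries without regard to litter, so these p-values do not separate a relation from differences shared by a litter. Ranks and adjustment used scipy 1.17.1. The pipeline was tested on simulated data. Alternatives covered pseudocount, filter, scaling, litter, replicate number, Xist, array weights and each library left out.

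The members and lists were chosen with earlier results of these data known. Values in every library are given for non-clustered members averaging at least 1 TPM, the 3 highest members of each clustered family, called members, and the 3 members of each direction with the smallest genotype p. Of each list, the 2 genes with the smallest genotype p are named. Ctcf, Smchd1, Cdh2, Cdh11 and the litter values of Fyn, Reln and Lhx5 are outside this rule and were picked with their values in view, as were the entries named in capitals.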

Additional observations from a re-analysis of the deposited data

Results flagged for a closer look

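Within a genotype, 1 library stood apart from the other 4 for 3 genes, by a gap test at the 95% level (Dixon) over 70 groups of 5 libraries, of which chance gives about 1 in 20. Pcdhb22 was at 1.61 TPM in WT 3, against 0.78 to 0.96 TPM in the other WT libraries. Pcdh8 was at 5.38 TPM in WT 5, against 1.20 to 2.40 TPM in the other WT libraries. Pcdhga9, 1 of the entries named in capitals, was at 5.29 TPM in cKO 1, against 1.63 to 2.68 TPM in the other cKO libraries.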

How the results depend on the processing

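The genotype comparison called 0 of the members under every alternative run, and without the filter on low values all 57 were tested with 0 called. With Xist as a covariate 24 of 24 estimates were below 0, and with array weights 12 of 24. The share of all genes below 0 in these fits is not given here. The litter comparison called 9 members with either other pseudocount, 12 with Xist as a covariate and 13 with the entries named in capitals counted (chosen after seeing the data). It called 3 without the filter, 5 of 8 tested with a filter at 5 TPM, 4 after quantile normalisation (1 higher), 5 without globin and mitochondrial genes and 15 with array weights; leaving out 1 library gave 1 to 9. Over all genes, quantile normalisation called 1612 higher and 1945 lower, against 803 and 3575. Removing globin and mitochondrial genes called 989 higher and 2973 lower. For the other alternatives the share of all genes called is not given here. Their counts of members therefore do not show a change particular to protocadherins. Where the cause of a change is not given, it was not tested. Pcdh19 was lower in litter 3 under all alternatives and called under all but the replicate block.

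The replicate numbers name animals and 4 of 5 pairs share a litter, but same-numbered libraries deviated together in no regular way (correlations of -0.29 to 0.30), and 1 of 10 libraries correlated best with its own number. With the replicate block beside the litter term 0 members were called in either comparison, and the litter contrast then rests on the 1 number whose libraries come from different litters.

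Estimates that changed sign, all uncalled, were for genotype (log2) as follows. Without the litter term, and likewise with the replicate block alone, Pcdh17 was 0.029, Pcdhgb2 0.078, Pcdh1 0.085, Pcdhgc4 0.10, Pcdhgb6 0.11 and Pcdh9 0.14. With the replicate block and litter, Pcdh19 was -0.12, Pcdhgb2 0.018 and Pcdhgc4 0.028. With Xist, Pcdh10 was -0.011, Pcdh8 -0.10 and Pcdh19 -0.20. With array weights, Pcdhgb2 was 0.033, Pcdh17 0.038, Pcdhgb6 0.092, Pcdh9 0.11, Pcdhgc4 0.15 and Pcdh1 0.32. In litter 1 alone, Pcdh17 was 0.0095, Pcdh7 0.016, Pcdhga4 0.034, Pcdhga7 0.076, Pcdhgb7 0.077, Pcdhgb6 0.21, Pcdh9 0.25 and Pcdh1 0.43. In litters 3 and 5, Pcdh19 was -0.039, Pcdh10 -0.043, Pcdh8 -0.31 and Pcdh18 0.064. Quantile normalisation gave Pcdhgb6 0.0095, and removing globin and mitochondrial genes gave Pcdh19 -0.0025. In the litter contrast, Xist gave Pcdh18 -0.028 and Pcdh12 -0.21, array weights gave Pcdh18 -0.0058, and the replicate block gave Pcdh18 -0.036, Pcdh12 -0.20, Pcdhb7 0.26 and Pcdh7 0.54.

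Leaving out 1 library, the genotype estimate ran from -0.16 to 0.0022 for Pcdh18, -0.086 to 0.11 for Pcdh19, -0.25 to 0.34 for Pcdh9, -0.29 to 0.54 for Pcdh1, -0.17 to 0.082 for Pcdh17, -0.10 to 0.15 for Pcdhgb6, -0.18 to 0.010 for Pcdhgb7 and -0.17 to 0.096 for Pcdhgc4. The litter estimate ran from -0.093 to 0.13 for Pcdh18, -0.63 to 0.0034 for Pcdh7 and -0.19 to 0.36 for Pcdh12.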
